A study of Rattus norvegicus with 4 samples.

Results

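The genes described here encode 7 neuropeptides known from cortical interneurons: Sst, Npy, Pnoc, Tac1, Crh, Penk and Nmu. All probe sets whose platform symbol was one of these were taken, which gave 11 probe sets out of the 1137 on the array with a single gene symbol, or 7 of 720 genes. The cells were primary cortical neurons of rat, taken at embryonic day 17 and grown for 14 days in Neurobasal medium with B27 supplement. The KCl group received 25 mM KCl for 4 h, which depolarizes the membrane, and the control group received phosphate-buffered saline (PBS) for 4 h. There were 2 arrays per group, named KCl 1, KCl 2, control 1 and control 2 after their titles. The free-text description calls all 4 samples non-activated, so for the KCl samples it conflicts with the title and the treatment protocol, which were followed. The labels do not say if samples of the same group are separate cultures, so p-values cover the spread between arrays, which may be purely technical. The labels do not give the strain or sex, or whether embryos were pooled.

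Neuropeptides are cut from larger precursor proteins, stored in dense-core vesicles and released during strong activity, after which they act on G-protein-coupled receptors. In the cortex, inhibitory neurons that release GABA make many of them, and the peptide a cell makes is used to tell interneuron classes apart. Somatostatin (Sst) marks a class that targets dendrites, and neuropeptide Y (Npy) marks neurogliaform cells and part of the Sst class. Both peptides dampen the release of transmitters or hormones. The somatostatin promoter is a textbook case of the cAMP response element (CRE), to which the transcription factor CREB binds.

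Promoter sequences were shown for the members found in the RefSeq promoter table (build GRCr8), which were Sst, Npy, Tac1 and Nmu, 4 of the 7. Each window in that table runs from 250 bases before the transcript start to 50 bases after it. The full CRE, TGACGTCA, which is its own reverse complement, the core CRE site TGACG and the AP-1 site TGACTCA were searched on both strands. The full CRE contains the core site on each strand. Sst was the 1 member of the 4 with a full CRE, which occurred in 1.83% of all 33469 promoters in the table. It lay at bases 3 to 10 of the annotated transcript. The annotated start was not compared with a measured one, so this position depends on the annotation. The core site occurred in 3 of the 4 members and in 21.2% of all promoters, and the AP-1 site in 1 of the 4, Nmu, and in 4.63% of all promoters. The sequences below run from 120 bases before the start to 20 after it for Sst (chr11:90461426-90461565, plus strand), where the full CRE is in capitals, and for Npy (chr4:80211991-80212130, plus strand), where none of these motifs was found. The matches of Tac1 and Nmu are not shown, because the transcript start used in that table lies inside the span the RefSeq gene table gives for these genes, so that part of each window is within the gene. A match describes letters in a window and not a bound site.
Sst: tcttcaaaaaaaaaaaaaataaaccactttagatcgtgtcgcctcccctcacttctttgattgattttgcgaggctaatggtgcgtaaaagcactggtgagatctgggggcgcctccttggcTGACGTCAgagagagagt
Npy: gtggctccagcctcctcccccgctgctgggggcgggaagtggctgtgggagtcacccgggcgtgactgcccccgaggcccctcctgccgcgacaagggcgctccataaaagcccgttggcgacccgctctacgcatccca

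The deposited values are probe set intensities in arbitrary units. They had been brought to a common level before deposit, with 2% trimmed means between 502.0 and 502.4 on the 4 arrays. The 19 control probe sets for bacterial and yeast genes, which rat RNA should not light up, had a median of 9.05 and a highest value of 73.7. A group with no value over 73.7 is called within background. The groups were compared with limma over 947 probe sets, after the dimmest 25% were left out, and a probe set was called at a Benjamini-Hochberg adjusted p below 0.05. All 11 neuropeptide probe sets passed this filter. As a check of depolarization, all 11 tested immediate-early genes (genes switched on within minutes to hours of activity) rose, with a median log2 change of 2.40 (Fos, Junb, Nr4a1, Crem, Fosl2, Bdnf, Cebpb, Egr1, Jund, Nr4a3 and Jun). Of their 25 probe sets 22 were called, all higher, while 5.49% of all tested were called higher. The count of 11 genes was 9 with the replicate number as a block and 6 without the intensity trend of the variance model. With an ordinary t statistic it was 0, as it was over all 947 probe sets.

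Sst fell after KCl on both of its probe sets, and none of the other 6 neuropeptide genes passed the test on any probe set. In all, 2 of 11 probe sets were called, both lower, while over all 947 probe sets 5.28% were called lower, 5.49% higher and 10.8% in either direction. An unadjusted p below 0.05 was also reached by these 2 alone, against 25.6% of all tested. Of the 9 that did not pass, 5 had log2 changes above 0 and 4 below. The median log2 change over the 11 was −0.06, and it was −0.10 over all tested probe sets. The KCl and control intensities did not overlap on 6 of the 11, 3 lower and 3 higher in KCl, while 58.0% of all tested probe sets showed such separation, 36.5% lower and 21.4% higher.

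**Figure D1:**
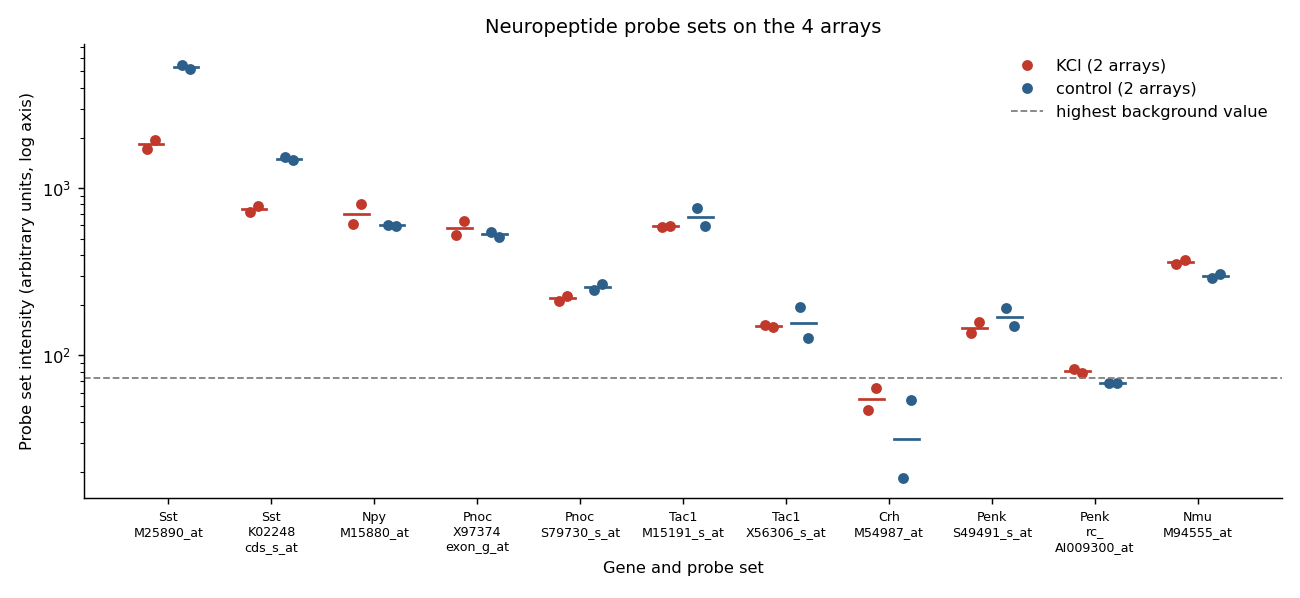
Intensity of the 11 neuropeptide probe sets (log axis, arbitrary units) on the 2 KCl arrays (red, left of each pair) and the 2 control arrays (blue, right). Short lines are geometric means and the dashed line is the highest background value, 73.7. Both Sst probe sets lie lower in KCl, and Crh lies under the line on all 4 arrays.

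Sst, the somatostatin precursor gene, gave the brightest signal of the 11 probe sets. Probe set M25890_at read 1712 on KCl 1 and 1951 on KCl 2, against 5491 on control 1 and 5199 on control 2. Both KCl values lay far under both control values, and the gap between groups was much wider than that between the arrays of a group. The means were 1832 ± 168 in KCl and 5345 ± 207 in control cultures (SD, n = 2 arrays each). The log2 change was −1.55 ± 0.11 (SE), with a 95% confidence interval of −1.80 to −1.30 (limma adjusted p = 4.1e-05). This was the 18th lowest log2 change of the 947. In control cultures the mean was 72.5 times the highest background value, and in KCl cultures it was still 24.9 times that value, so the fall was read well within the measured range.

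The other Sst probe set, K02248cds_s_at, fell less. It read 717 on KCl 1 and 786 on KCl 2, against 1536 on control 1 and 1474 on control 2, and the groups again did not overlap. The log2 change was −1.00 ± 0.12 (95% interval −1.27 to −0.73; limma adjusted p = 0.0011), a 2.00-fold fall. Affymetrix gives the ending _s_at to sets whose probes can match more than 1 transcript. On any single array both sets read the same RNA, and M25890_at was 2.39 and 2.48 times as bright as K02248cds_s_at on the KCl arrays, against 3.57 and 3.53 times on the control arrays. The fold of the Sst fall thus differed between its probe sets, by 0.54 in log2, and the size of the fall in transcripts cannot be read from either alone. Without control 1 and without control 2 in turn, K02248cds_s_at kept log2 changes of −0.97 and −1.03 but did not pass (adjusted p = 0.12 and 0.13), while M25890_at passed (adjusted p = 0.044 and 0.043). In a bulk culture, fewer cells of a type and less RNA per cell cannot be told apart.

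**Figure D2:**
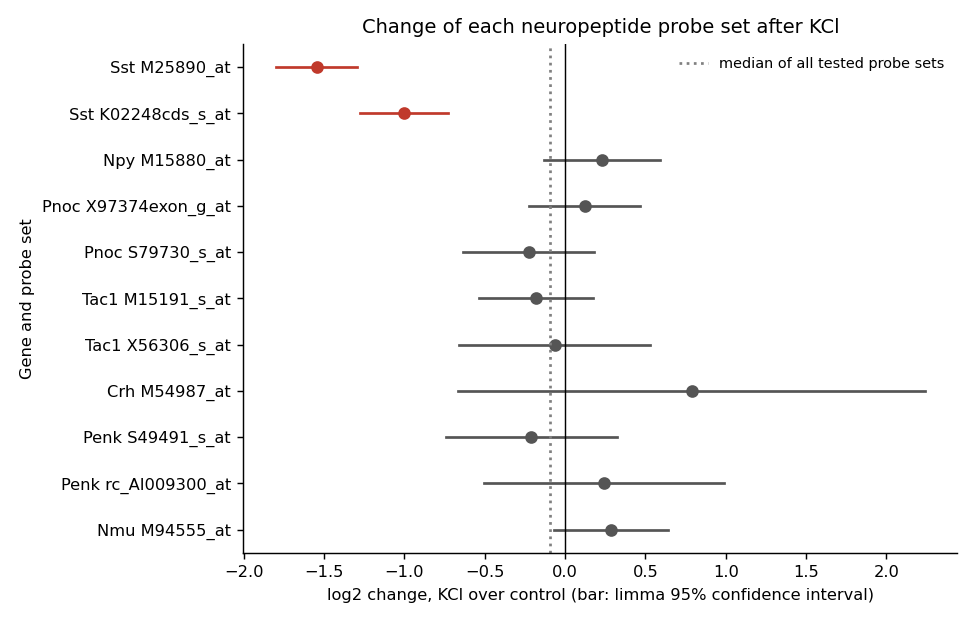
Log2 change of each neuropeptide probe set, KCl over control, with limma 95% confidence intervals (bars). Red marks adjusted p below 0.05, and the dotted line is the median of all 947 tested probe sets, −0.10. The intervals of the 2 Sst probe sets lie entirely under 0, and the other 9 all include 0. Crh was within background on all arrays, so its position carries no fold.

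Npy encodes neuropeptide Y, which in the cortex is often made by the same cells as somatostatin. Its probe set read 614 on KCl 1 and 805 on KCl 2, against 602 on control 1 and 598 on control 2. The groups did not overlap, but KCl 1 lay close to the control pair and most of the difference came from KCl 2. The log2 change was 0.23 ± 0.16 (95% interval −0.13 to 0.59; limma adjusted p = 0.41). It was 0.03 without KCl 2 and 0.42 without KCl 1, and it did not pass in either case.

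Pnoc encodes the precursor of nociceptin, a relative of the opioid peptides that acts on its own receptor. Its brighter probe set, X97374exon_g_at, read 522 and 637 in KCl and 548 and 513 in control cultures, with KCl 1 between the control values and KCl 2 over both (log2 change 0.12 ± 0.15). The other, S79730_s_at, read 212 and 227 in KCl and 247 and 267 in control cultures (log2 change −0.23 ± 0.18). Here both KCl values were lower, so the probe sets of Pnoc pointed in opposite directions, and neither passed (limma adjusted p = 0.66 and 0.47).

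Penk encodes the precursor of the enkephalins, opioid peptides. Probe set S49491_s_at read 136 and 158 in KCl and 191 and 150 in control cultures, which overlapped (log2 change −0.21 ± 0.23). Probe set rc_AI009300_at read 82.9 and 79.0 in KCl cultures and 68.6 and 68.4 in control cultures. Its control values were within background and its KCl values just above, so its log2 change of 0.24 ± 0.33 depends on that background. Neither passed (limma adjusted p = 0.62 and 0.68).

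Tac1 encodes the precursor of substance P and neurokinin A, peptides that excite neurons. Probe set M15191_s_at read 590 and 597 in KCl and 765 and 591 in control cultures, and X56306_s_at read 151 and 149 in KCl and 194 and 127 in control cultures. On both, the 2 KCl arrays were nearly equal and control 1 was brighter than control 2, by 1.29 and 1.53 times. The log2 changes were −0.18 ± 0.16 and −0.06 ± 0.26, and neither passed (limma adjusted p = 0.52 and 0.90). Without control 1 they were 0.00 and 0.24, so the sign rested on that array.

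Nmu encodes neuromedin U, a peptide named for its contraction of the uterus and known in the brain for effects on feeding. Its probe set read 353 and 374 in KCl and 291 and 305 in control cultures. Both KCl values were higher than both control values, by a smaller margin than for Sst (log2 change 0.28 ± 0.16, 95% interval −0.07 to 0.64; limma adjusted p = 0.28). Crh encodes corticotropin-releasing hormone, the hypothalamic stress hormone, which some cortical interneurons also make. Its probe set read 47.3 and 63.7 in KCl and 18.6 and 54.4 in control cultures, all within background, so its level and fold cannot be read. Of the 11 probe sets, 9 lay above 73.7 on all 4 arrays, and the exceptions were that of Crh and rc_AI009300_at of Penk.

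Resting signal differed widely between the probe sets in control cultures. Mean control intensities as multiples of the highest background value were 72.5 and 20.4 for the Sst probe sets, 9.20 and 2.17 for Tac1, 8.14 for Npy, 7.20 and 3.48 for Pnoc, 4.05 for Nmu, 2.32 and 0.93 for Penk and 0.50 for Crh. Probe sets bind with different strength, so this order describes signal and not numbers of transcripts. The pairs of probe sets for the same gene show how far such signals can lie apart. In control cultures the brighter set exceeded the dimmer by 4.29 times for Tac1, 3.55 for Sst, 2.47 for Penk and 2.07 for Pnoc.

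The 95% intervals of the log2 change were compared for the 7 probe sets above background on all arrays that did not pass. The lowest bound was −0.74, for Penk S49491_s_at (interval −0.74 to 0.32), and the highest was 0.64, for Nmu (interval −0.07 to 0.64). For each probe set, a change inside its own interval is within the error of 4 arrays.

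**Figure D3:**
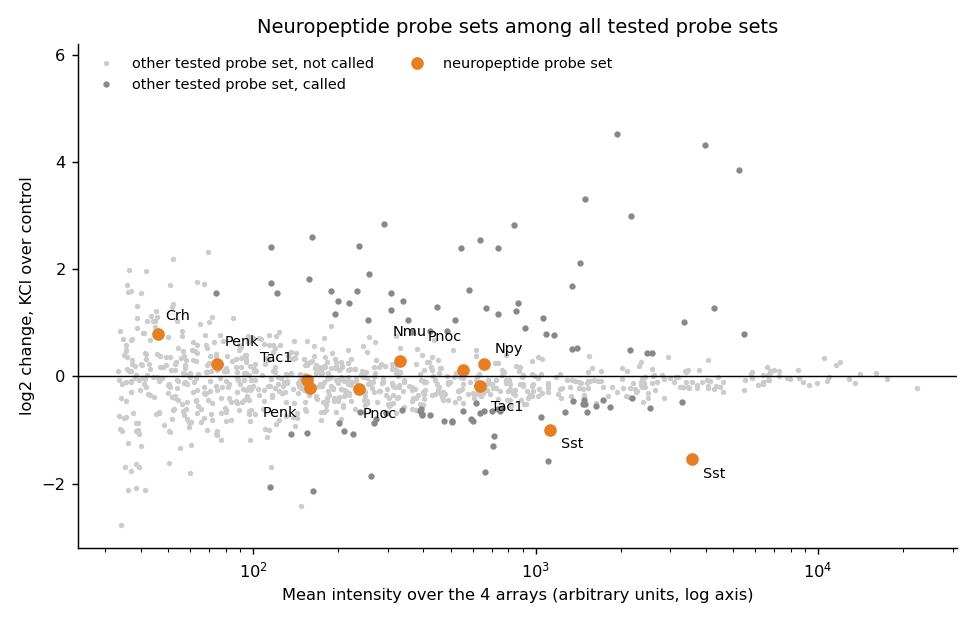
Log2 change, KCl over control, against mean intensity over the 4 arrays (log axis, arbitrary units) for all 947 tested probe sets. Orange marks the 11 neuropeptide probe sets, dark grey other called ones and light grey the rest. The 2 Sst probe sets lie under 0 at −1.55 and −1.00, and the other neuropeptide probe sets lie among those not called.

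The changes of Sst and of the other genes can be set side by side array by array, as the ratio of Sst (M25890_at) to the brightest probe set of each gene. A ratio of different probe sets has no meaning as a level, and its change restates the difference between the log2 changes given above, free of array scaling. Sst over Npy was 2.79 and 2.42 on the KCl arrays, against 9.12 and 8.70 on the control arrays. Sst over Pnoc was 3.28 and 3.06 in KCl and 10.02 and 10.13 in control cultures. For Nmu the ratio was 4.85 and 5.22 in KCl and 18.9 and 17.0 in control cultures. These ratios, and those to Tac1 and Penk, were lower on both KCl arrays than on both control arrays, by 2.53-fold (Penk) to 3.56-fold (Nmu). With the other Sst probe set, K02248cds_s_at, they were also lower on both KCl arrays, by 1.73-fold (Penk) to 2.44-fold (Nmu). With 2 arrays per group an exact two-sided permutation test cannot give a p below 0.33, and it gave 0.33 for each (0.38 after adjustment over the 8 ratios computed).

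The ratio of Sst to Slc32a1, which encodes the transporter that loads GABA into vesicles, depended on the Sst probe set. With M25890_at it was 3.33 and 3.25 in KCl and 3.26 and 3.16 in control cultures, with overlapping groups (log2 difference 0.03; exact permutation p = 0.67). The ratio to Gad1, the gene of a GABA-synthesizing enzyme, was 6.77 and 5.65 in KCl and 4.92 and 5.58 in control cultures (log2 difference 0.24; exact permutation p = 0.33, the smallest possible). With K02248cds_s_at, Sst over Slc32a1 was 1.39 and 1.31 in KCl and 0.91 and 0.90 in control cultures, without overlap (log2 difference 0.58; exact permutation p = 0.33). The log2 difference of the ratio to Gad1 was then 0.78. Whether Sst fell by the same factor as Slc32a1 can therefore not be read from these arrays.

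**Figure D4:**
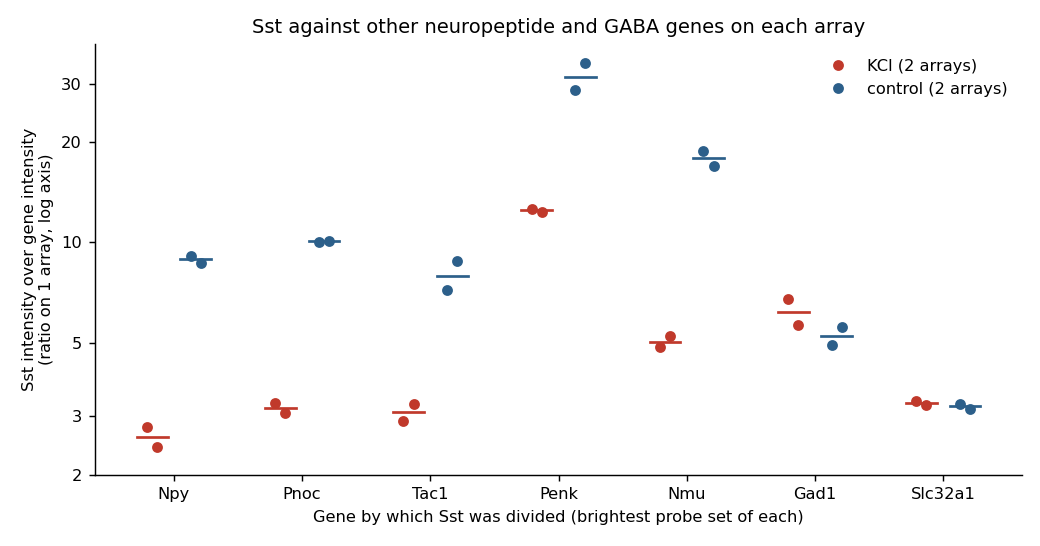
Ratio of Sst intensity (M25890_at) to the intensity of each gene's brightest probe set on the same array (log axis), for the 2 KCl arrays (red, left) and the 2 control arrays (blue, right), with geometric means as short lines. Ratios to the neuropeptide genes are lower in KCl, while that to Slc32a1 lies between 3.16 and 3.33 on all 4 arrays with this Sst probe set. Crh is left out because its values were within background.

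The probe sets whose log2 profile over the 4 arrays, centred on its mean, lay closest to that of Sst M25890_at were those of Slc32a1 (Euclidean distance 0.05), Gad1 (0.33), Nxph1 (0.35), Kcnk3 (0.48) and Mapk14 (0.52). Slc32a1 read 515 and 601 in KCl and 1683 and 1646 in control cultures. Nxph1, which encodes the neurexin ligand neurexophilin 1, read 114 and 112 in KCl and 420 and 403 in control cultures. Kcnk3, a leak potassium channel gene, read 18.6 and 17.8 in KCl cultures, within background, and 74.4 and 46.6 in control cultures, and did not pass (adjusted p = 0.13). Mapk14, the p38 MAP kinase gene, read 447 and 446 in KCl and 880 and 1068 in control cultures. The likeness is a description over 4 arrays and holds for this Sst probe set.

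Among other genes of interneurons, a list chosen with earlier results of these data known, 4 of 10 tested fell and none rose. Over all 947 probe sets 5.28% were called lower and 5.49% higher. The median log2 change of the 10 was −0.68, against −0.09 over the brightest probe sets of all 570 tested genes. Grik1 was within background in both groups, Gria4 and Kcnc2 in KCl and Chrm2 in controls, so that median depends in part on background. The 4 that fell were Slc32a1 (−1.58 ± 0.13; limma adjusted p = 0.00010), Gad1 (−1.79 ± 0.18), Nxph1 (−1.86 ± 0.18) and Kcnc2. Kcnc2, which encodes a potassium channel of fast-spiking cells, read 37.2 and 51.5 in KCl cultures, within background, and 222 and 149 in control cultures (limma adjusted p = 0.0069). Set against the highest background value, it was at least 2.47-fold lower in KCl. Dimmer probe sets of Slc32a1, within background in KCl, and of Kcnc2, within background in both groups, did not pass. Htr3a, the serotonin receptor gene that marks a further interneuron class, had −0.45 ± 0.18 (adjusted p = 0.17). With either control array left out, so that the spread comes from the KCl pair, 0 of the 10 passed in limma, although the log2 changes of Slc32a1 were −1.57 without control 1 and −1.60 without control 2. With all 4 arrays 5 had an unadjusted p below 0.05 in limma, against 25.6% of all tested probe sets. With an ordinary t statistic 5 did, against 157 of all 947.

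Of the 7 peptide receptor genes that were tested, none passed in limma. In limma 3 had an unadjusted p below 0.05, against 25.6% of all tested probe sets. With an ordinary t statistic 1 did, against 157 of all 947. The receptors of somatostatin were Sstr2, which read 585 and 568 in KCl and 750 and 674 in control cultures (−0.30 ± 0.13; adjusted p = 0.19), and Sstr4, which read 147 and 180 in KCl and 221 and 223 in control cultures (−0.45 ± 0.20; adjusted p = 0.21). Both were lower on each KCl array than on each control array, as were 36.5% of all tested probe sets. The Npy receptor gene Npy1r read 546 and 548 in KCl and 567 and 552 in control cultures (−0.03 ± 0.13). Oprl1, the nociceptin receptor gene, read 89.6 and 89.0 in KCl and 140 and 176 in control cultures (−0.81 ± 0.26; adjusted p = 0.086). Oprm1, the µ-opioid receptor gene, on which enkephalins act, read 19.5 and 34.1 in KCl, within background, and 68.7 and 116 in control cultures (adjusted p = 0.069). Without KCl 2 its log2 change was −2.2, which depends on that background. Its other 2 tested probe sets were also within background in KCl, and neither passed. Tacr1 and Tacr3, receptor genes for the tachykinins, did not pass. Tacr1 had a log2 change of 0.18 ± 0.32, and Tacr3 was within background in both groups.

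Of 6 other tested peptide or peptide hormone genes none passed in limma. The unadjusted p was below 0.05 for 0 of them, both in limma and with an ordinary t statistic. The bright one was Cck, which encodes cholecystokinin, a peptide of both excitatory cells and a class of interneurons. It read 7003 and 7028 in KCl and 6311 and 6729 in control cultures (log2 change 0.11 ± 0.10). Pdyn, the precursor gene of dynorphin, read 83.0 and 104 in KCl and 48.4 and 113 in control cultures. Oxt, the precursor gene of oxytocin, was within background in both groups. For peptide processing and dense-core vesicles the array gave 1 gene, Vgf, a precursor of secreted peptides, which rose to 1115 and 1267 in KCl, against 582 and 450 in control cultures (log2 change 1.22 ± 0.16; limma adjusted p = 0.0017). It did not pass without control 1 (adjusted p = 0.07) or without control 2 (adjusted p = 0.14).

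**Figure D5:**
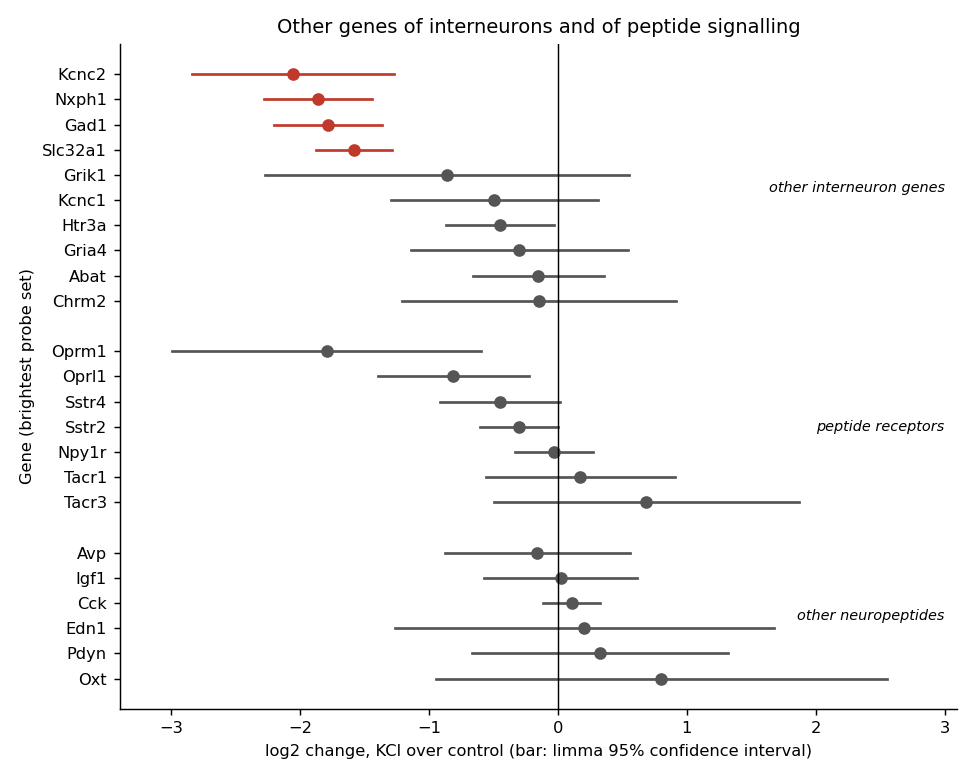
Log2 change, KCl over control, of the brightest probe set of the tested genes in 3 lists, with limma 95% confidence intervals (bars). Red marks adjusted p below 0.05. The 4 red genes, Kcnc2, Nxph1, Gad1 and Slc32a1, all belong to the interneuron list, and no peptide receptor or other neuropeptide gene is red. The positions of Kcnc2, Grik1, Gria4, Chrm2, Oprm1, Tacr3, Oxt and Edn1 depend on background, since either group or both were within it.

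Signals of other cell types moved on the same arrays. Of 7 tested astrocyte markers 6 rose (Apoe, Slc1a3, S100b, Glul, Vim and Gja1), while 5.49% of all tested probe sets were called higher. The count was 3 with centring on the median, 3 with the replicate block and 0 without the intensity trend. Summed intensity of the 7 ran from 9974 to 12551 in KCl and from 5220 to 5484 in control cultures. The largest part was Apoe, which read 6925 and 5196 in KCl and 2700 and 2298 in control cultures. Slc1a2 was within background in both groups and Gja1 in controls, and with either control array left out 0 of the 7 passed. Summed neuron markers ran from 47074 to 49456 in KCl and from 47744 to 51683 in control cultures, which overlapped. The largest part of that sum was Mapt. Of the 11, 1 was called, Snap25, as higher. Unadjusted p-values were below 0.05 for 3 in limma and for 1 with an ordinary t statistic. Syn2 (−0.44 ± 0.15) and Syp (−0.29 ± 0.10) were lower on both KCl arrays and did not pass (limma adjusted p = 0.12 for each). Of 5 oligodendrocyte, 2 microglial and 1 endothelial marker genes, none passed in limma. Unadjusted p-values were below 0.05 for 0, 0 and 1 of them, counts that were alike with an ordinary t statistic. The 2 microglial genes and 3 of the oligodendrocyte genes (Mbp, Pdgfra and Mog) were within background in both groups, so no change can be read from them. Summed excitatory neuron markers (3 genes, 0 called) ran from 4169 to 4240 in KCl and from 3914 to 4511 in control cultures. Most of that sum was Nrgn, which read 3540 and 3490 in KCl and 3564 and 3065 in control cultures. Camk2a was within background in both groups. Gria2 was lower on both KCl arrays, with 563 and 700 against 899 and 783 in control cultures (limma adjusted p = 0.13). The 2 tested markers of inhibitory neurons other than peptide genes were Gad1 and Slc32a1, already counted above among the interneuron genes. Both fell, and their sum ran from 768 to 946 in KCl and from 2577 to 2800 in control cultures. The hexokinase control transcript had a ratio of 3′ to 5′ signal, which tracks RNA integrity, of 2.49 and 2.67 in KCl and 2.25 and 2.00 in control cultures. That of β-actin was 1.08 and 1.08 in KCl and 1.08 and 1.12 in control cultures, and that of Gapdh 1.19 and 1.17 in KCl and 1.17 and 1.23 in control cultures, and these overlapped. The part of the astrocyte signal and of the hexokinase ratio in the fall of Sst was not tested.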

How the data were processed

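The data were probe set intensities from Affymetrix 1-colour arrays hybridized with biotin-labelled cRNA made from total RNA, per the labels' protocols. The deposited intensity values were on a linear scale and had been scaled by the authors before deposit, as the near-equal trimmed means show. How the probes of a set were combined is not stated in the labels. The table held 1322 probe sets, of which 59 were Affymetrix controls. Symbols came from the platform annotation, which gave 1137 probe sets 1 symbol, 8 several and 118 none. Intensities were taken to log2 as deposited, the dimmest 316 probe sets by mean over the 4 arrays (means up to 33.3) were left out, and 947 were tested in limma 3.58.1 (R 4.3.3) with lmFit and eBayes with an intensity trend, two-sided, with Benjamini-Hochberg adjustment over the 947. Precision is limited by the number of arrays. Simulated arrays with independent normal noise, and 200 of the 947 probe sets changed per run, were used to check the test. It recovered 35.1% of log2 changes of 0.5, 70.5% of those of 1 and 92% of those of 2. Of the probe sets called, 4% were false. A change of 0.5 would thus often be missed.

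The members and gene lists were chosen with earlier results of these data known. All member probe sets are reported. Of the other lists, genes that passed and the 3 with the smallest p were to be named, each through its brightest probe set, and the 5 probe sets closest in profile to Sst. Htr3a, Sstr4, Npy1r, Tacr1 and Tacr3 were added after their values were seen. Alternatives were quantile normalization, centring on the median, a pseudocount of 32, no filter, leaving out the dimmest 50%, a replicate block, leaving out each array, no intensity trend and an ordinary t statistic.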

Additional observations from a re-analysis of the deposited data

How the results depend on the processing

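The brighter Sst probe set kept its direction in all 12 alternatives, with log2 changes of −1.64 to −1.45. Of the alternatives with all 4 arrays, it passed in each except the ordinary t statistic (−1.55, adjusted p = 0.17). Without a KCl array the spread comes from the control pair alone, so passing there is not counted. The other Sst probe set also kept its direction in all 12. It did not pass without the intensity trend (−1.00; adjusted p = 0.069), with an ordinary t statistic (−1.00; adjusted p = 0.18) or without either control array, and leaving out each array in turn gave −1.07 to −0.94. The count of called neuropeptide probe sets, 2, was 1 without the intensity trend and 0 with an ordinary t statistic. With the latter, 4 of the 11 had an unadjusted p below 0.05, against 2 in limma. None of 106 recomputed values of the other neuropeptide probe sets passed, and the smallest adjusted p was 0.11. With each array left out, the log2 change of Pnoc X97374exon_g_at ran from −0.023 to 0.27, that of Tac1 M15191_s_at from −0.37 to 0.0048 and that of Tac1 X56306_s_at from −0.37 to 0.24. Over all 947 probe sets, 102 were called as deposited and 11 to 178 with each array left out, the lower counts without a control array. There were 21 without the intensity trend and 0 with an ordinary t statistic, where 157 had an unadjusted p below 0.05, against 242 in limma. With the replicate block 50 were called, and both Sst probe sets passed. Samples of different groups share a number, and the labels state no pairing. The differences of the control pair and of the KCl pair had a correlation of −0.03 across probe sets. No shared effect of the number was visible in it, but this does not settle whether samples were paired. The ratios with the dimmer Sst probe set were added after the data were seen.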
